A study of Homo sapiens with 20 samples.

Results

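The vascular endothelial growth factor (VEGF) family was followed through POLR1D silencing in 2 colorectal cancer cell lines. It was taken as the 10 genes VEGFA, VEGFB, VEGFC, VEGFD, PGF, FLT1, KDR, FLT4, NRP1 and NRP2, each read by its symbol from all 20 libraries, out of 36346 gene names in the data. The 5 ligands are secreted dimers. VEGFA binds the tyrosine kinase receptors FLT1 and KDR, VEGFB and PGF bind FLT1, and VEGFC and VEGFD bind FLT4 and, after processing, KDR. The neuropilins NRP1 and NRP2 are co-receptors that hold VEGF ligands and also bind class 3 semaphorins. In colorectal tumours the cancer cells are a known source of VEGFA, the target of bevacizumab, while the kinase receptors are best known from blood and lymphatic endothelium. The question was whether a fall of VEGFA after POLR1D silencing was particular to it within its own family.

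POLR1D encodes a subunit shared by RNA polymerases I and III. HT29 cells, which carry a focal amplification that includes POLR1D, and SW480 cells, which gained the whole of chromosome 13, were reverse transfected with a control siRNA (SCR in the sample names, AllStars Negative Control in the series text) or with 1 of 2 siRNAs against POLR1D (siPOLR1D2 or siPOLR1D3), and RNA was taken 72 h later. HT29 had 4 SCR, 2 siPOLR1D2 and 2 siPOLR1D3 libraries, and SW480 had 6, 3 and 3. Both are cultures of tumour cells alone, without stroma or vessels. Nothing in the labels says whether replicates were separate cultures, so p-values measure the spread between these libraries, which may be technical. Estimated reads per library ran from 13533100 to 27588400, HT29 SCR replicates 1 and 2 being the shallowest of the SCR libraries of that line. POLR1D ran from 4433 to 6036 in HT29 SCR and from 2550 to 3492 in silenced HT29 libraries, and from 1829 to 2599 against 843 to 1336 in SW480, so that every silenced library lay below every SCR library of its line. Of 12 epithelial markers, 9 had a median of at least 10 in HT29 SCR libraries and 8 in SW480. CDX1 had a median of 0 in both lines, CDX2 and GPA33 were near 0 in HT29, and KRT20, LGALS4 and CEACAM5 had medians under 10 in SW480. Of 12 vascular endothelial markers, 3 had a median of at least 10 in HT29 SCR libraries and 5 in SW480, among them ENG at 298 and 348, while CDH5 and ERG had medians under 1 in both lines.

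Values below are normalized read counts, scaled by the authors within each line, so levels are not compared between lines. SCR cells held a small part of the family. In HT29, VEGFA, VEGFB and NRP1 were the members with a value of at least 10 in every library, and the other 7 were low or listed at 0. In SW480 VEGFA, VEGFB, NRP1 and NRP2 passed that level in every library and FLT1 in 11 of 12. VEGFC, the main lymphatic growth factor, was listed at 0 in all 20 libraries. KDR, the main signalling receptor of VEGFA, was listed at 0 in all 8 HT29 libraries and in 9 of 12 SW480 libraries, with a highest value of 1.57 in SW480 SCR replicate 5.

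**Figure D1:**
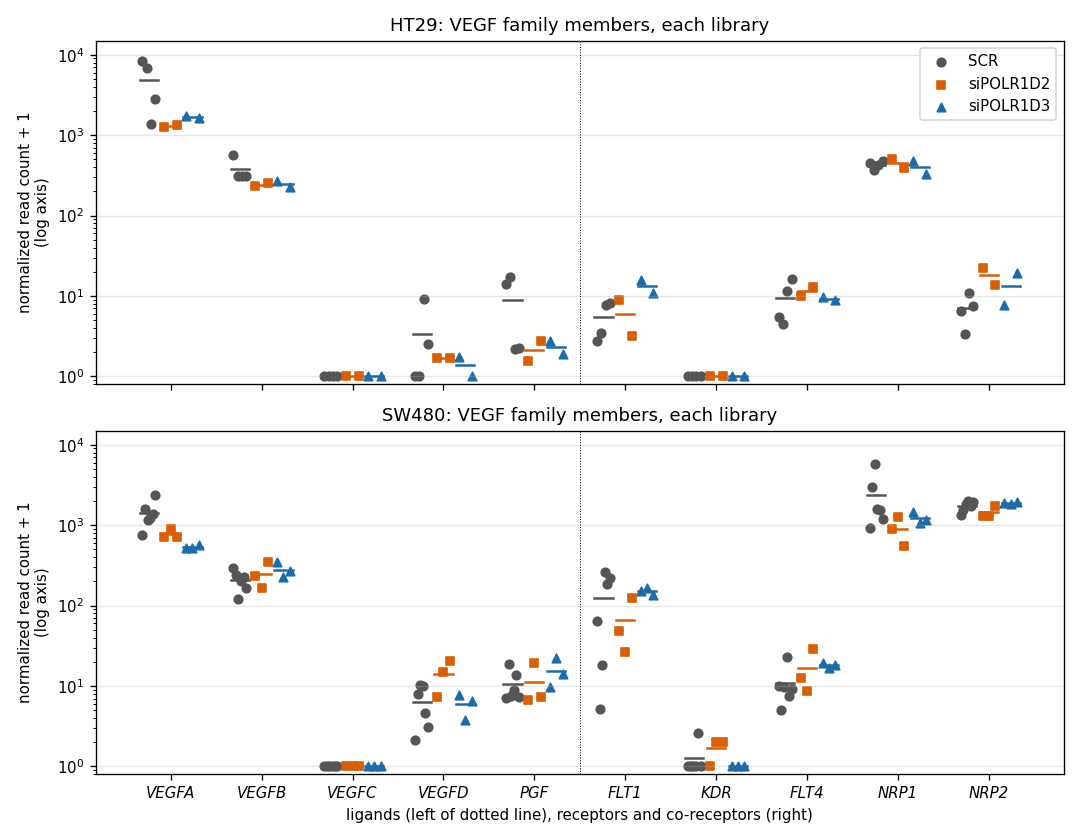
Normalized read count plus 1 (log axis) of each member in each HT29 library (upper panel) and SW480 library (lower panel); circles are SCR, squares siPOLR1D2, triangles siPOLR1D3, and bars are group means. VEGFA, VEGFB and NRP1 stand above the other members in HT29, NRP2 is high in SW480 where FLT1 overlaps with VEGFB, and VEGFC lies at 0 throughout.

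Per kilobase of the longest GENCODE transcript of each gene, VEGFA led the family in HT29 SCR cells at 398 ± 271 (SD, n = 4), followed by VEGFB at 271 ± 90.6 and NRP1 at 72.6 ± 7.38. VEGFA and VEGFB overlapped in their library values, and NRP1 lay below both. The other members were at or under 2.24 per kilobase in HT29. In SW480 SCR cells the order was NRP1 at 398 ± 311 (SD, n = 6), NRP2 at 260 ± 38.5, VEGFB at 151 ± 44.1, VEGFA at 116 ± 44.7 and FLT1 at 17.6 ± 15.6. Each of the first 4 overlapped with the next in that order, and VEGFA did not overlap with FLT1. The longest VEGFA transcript, 12167 bases, has no coding sequence, and with the longest coding transcript of 3535 bases, a length chosen after the data were seen, VEGFA rose to 1371 ± 932 per kilobase in HT29 and to the first place in SW480 at 399 ± 154. With the mean length of the coding transcripts, an alternative planned beforehand, VEGFA was also first in both lines. It was at 3959 ± 2691 in HT29, without overlap with VEGFB, and at 1153 ± 444 in SW480, overlapping with NRP1. The place of VEGFA in SW480 therefore rests on the transcript length used.

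VEGFA, the ligand that drives blood vessel growth, had lower mean values after silencing in both lines, where fewer cells with its RNA and less of it per cell cannot be told apart in bulk. In HT29 SCR replicates 1 to 4 its read count was 8407, 6777, 1372 and 2828. It was 1280 and 1325 with siPOLR1D2, and 1747 and 1635 with siPOLR1D3. The spread of the SCR libraries was wide, and both siPOLR1D2 libraries lay below every SCR library while neither siPOLR1D3 library did; 7.42% of all genes tested in HT29 had both siPOLR1D2 libraries below every SCR library. The log2 fold change with both siRNAs pooled was -1.38 (SE 0.49, 95% interval -2.47 to -0.28), which did not pass the test (limma, adjusted p = 0.425), and 0% of the 13274 genes tested in HT29 were called, against 1422 genes at an unadjusted p under 0.05. POLR1D itself, the silenced gene, was not called in HT29 either (log2 fold change -0.72, limma adjusted p = 0.355). Without SCR replicates 1 and 2, left out together after the data were seen, the VEGFA difference was -0.41 (limma, adjusted p = 0.559), and the part of the shallower libraries in the result was not tested further.

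In SW480 SCR replicates 1 to 6 the VEGFA read counts ranged from 751 to 2366 with a median of 1295. They were 711, 905 and 718 with siPOLR1D2 and 519, 515 and 566 with siPOLR1D3. The siPOLR1D3 libraries all lay below every SCR library, as they did for 10.9% of the genes tested, and 2 of the 3 siPOLR1D2 libraries did. Pooled, VEGFA was the only one of the 6 members tested in SW480 that was called (log2 fold change -1.05, SE 0.23, limma adjusted p = 0.0192), where 4.29% of the 15019 genes tested were called lower and 2.44% higher. The call was lost without SCR replicates 2 and 3 (-1.03, limma adjusted p = 0.0586) and in one fit of all 20 libraries (limma adjusted p = 0.0554). Of the genes tested 272, or 1.81%, had a lower log2 fold change than VEGFA. By siRNA, VEGFA was 2.49-fold lower with siPOLR1D3 (log2 fold change -1.32, SE 0.26, limma adjusted p = 0.0134, where 4.45% of genes were called lower), and 1.72-fold lower with siPOLR1D2, which missed the threshold (log2 fold change -0.78, SE 0.26, limma adjusted p = 0.0850, where 5% were called lower). The siPOLR1D3 call was lost when any of its own 3 libraries was left out (limma adjusted p between 0.0596 and 0.0797), and the siPOLR1D2 difference passed without SCR replicate 1 (-0.95, limma adjusted p = 0.0148). The difference between the siRNAs itself was -0.54 (95% interval -1.19 to 0.12, limma adjusted p = 0.318), in a contrast that called 3.32% of genes. The response of VEGFA in SW480 minus that in HT29 was 0.33 (95% interval -0.77 to 1.42, limma adjusted p = 0.924), in a test that called 0.0393% of 12724 genes.

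VEGFB, a ligand of FLT1 with little activity in vessel growth, stood in the HT29 SCR libraries at 562, 312, 311 and 313. After silencing it was 233 and 252 with siPOLR1D2, and 266 and 228 with siPOLR1D3. None of the 4 silenced values reached the lowest SCR value, which was so for 4.17% of the genes tested, and the exact permutation test gave p = 0.0286, unadjusted and the smallest that 4 against 4 libraries allow. On the log2 scale the difference was -0.57 (SE 0.20, limma adjusted p = 0.429), a 1.48-fold lower level that was not called. It was -0.58 with siPOLR1D2 and -0.55 with siPOLR1D3. Without SCR replicate 1, at 562, these differences were -0.35 pooled, -0.37 and -0.34.

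In SW480 the values of VEGFB went the other way without passing the test. The 6 SCR libraries ran from 122 to 297 with a median of 213, and the silenced ones held 231, 165 and 350 with siPOLR1D2 and 348, 223 and 267 with siPOLR1D3. The groups overlapped over most of their range, and the log2 fold change was 0.35 (SE 0.23, 95% interval -0.15 to 0.85, limma adjusted p = 0.397). The difference between the responses of VEGFB in the lines was 0.91 (SE 0.34, unadjusted p = 0.0142, limma adjusted p = 0.427) and was not called.

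The remaining ligands were too low to enter the fits. PGF, placental growth factor, was 13.2 and 16.2 in HT29 SCR replicates 1 and 2 and 1.20 and 1.23 in replicates 3 and 4, against 0.56 to 1.79 in silenced libraries. Its high HT29 values thus sat in the same SCR replicates as those of VEGFA. In SW480 PGF was between 6.06 and 17.5 in SCR and between 5.66 and 21.5 in silenced libraries. VEGFD, a lymphatic growth factor, was at most 8.07 in HT29. In SW480 it ran from 1.11 to 9.30 in SCR libraries, and 2 siPOLR1D2 libraries, at 14.1 and 19.3, were the highest (siPOLR1D2 against SCR, exact permutation test, 2-sided, p = 0.0952).

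The 2 kinase receptors of VEGFA differed in these cells, FLT1 being present in SW480 and KDR near 0, so the 250 bases before the RefSeq start of each gene (GRCh38.p14, minus strand) are shown. FLT1 lies on chr13:28300344-28495145 in GENCODE, 556 kb from POLR1D on the same chromosome. Its upstream bases are chr13:28495129-28495378 and those of KDR are chr4:55125596-55125845. Capitals mark a cAMP response element, the letters TGACGTCA, to which factors of the CREB and ATF families bind.
FLT1: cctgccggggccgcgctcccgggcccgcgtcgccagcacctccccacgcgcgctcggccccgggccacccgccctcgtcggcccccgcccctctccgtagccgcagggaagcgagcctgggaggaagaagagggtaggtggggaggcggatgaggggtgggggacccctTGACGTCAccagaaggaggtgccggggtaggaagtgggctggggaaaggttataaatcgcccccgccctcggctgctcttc
KDR: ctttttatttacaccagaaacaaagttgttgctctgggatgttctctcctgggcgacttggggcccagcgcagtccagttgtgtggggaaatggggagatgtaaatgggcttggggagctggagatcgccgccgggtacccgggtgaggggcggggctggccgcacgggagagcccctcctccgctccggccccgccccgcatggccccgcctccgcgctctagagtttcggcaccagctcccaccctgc
FLT1 held this element once, and 1.65% of 35116 promoter windows of that length held it on either strand. Of the 7 members with an entry (VEGFB, VEGFC, VEGFD, PGF, FLT1, KDR and NRP2), the other 6 did not hold it. None of the 7 held the hypoxia response core ACGTG, found in 18.5% of windows, or the CEBP-ATF element TGATGNAA, found in 3.14%. A match is a run of letters and was not tied to binding in these cells.

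FLT1, a receptor that binds VEGFA tightly and is also made as a soluble form, had the largest SE of the 6 members tested in SW480 on the log2 scale. Its SCR libraries held 63.0, 4.26, 17.2, 263, 185 and 217. With siPOLR1D2 it was 46.8, 25.6 and 123, and with siPOLR1D3 it was 152, 167 and 134. The SCR libraries thus fell apart into 3 low and 3 high ones, and the silenced libraries lay between their extremes. The pooled log2 fold change was 0.51 (SE 0.89, 95% interval -1.40 to 2.42, limma adjusted p = 0.775), an interval that spans large changes in both directions. In HT29 FLT1 was 1.75 to 7.21 in SCR and 2.14 to 14.7 in silenced libraries, and did not enter the fit.

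This split of FLT1 followed the largest axis of variation among the SW480 libraries. The first principal component of their log2 values took 42.0% of the variance and put the first 3 SCR replicates with siPOLR1D2 replicates 1 and 2 on one side. On the other lay the last 3 SCR replicates, the third siPOLR1D2 library and every siPOLR1D3 library. FLT1 was between 4.26 and 63.0 on the first side and between 123 and 263 on the second. These sides were read from the same values, FLT1 included, and are no groups of the study; what separates them was not tested. On the second side FLT1 was 123 to 167 in the 4 silenced and 185 to 263 in the 3 SCR libraries. The log2 fold change there was -0.61 (limma adjusted p = 0.0530). On the first side the silenced values of 25.6 and 46.8 fell within the SCR range. With siPOLR1D3 against SCR replicates 4 to 6 alone FLT1 was lower by limma (log2 fold change -0.54, adjusted p = 0.0487), the opposite sign to its difference from all 6 SCR libraries (1.25). The share of all genes called in these subset fits is not given here, so the FLT1 values are descriptions.

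**Figure D2:**
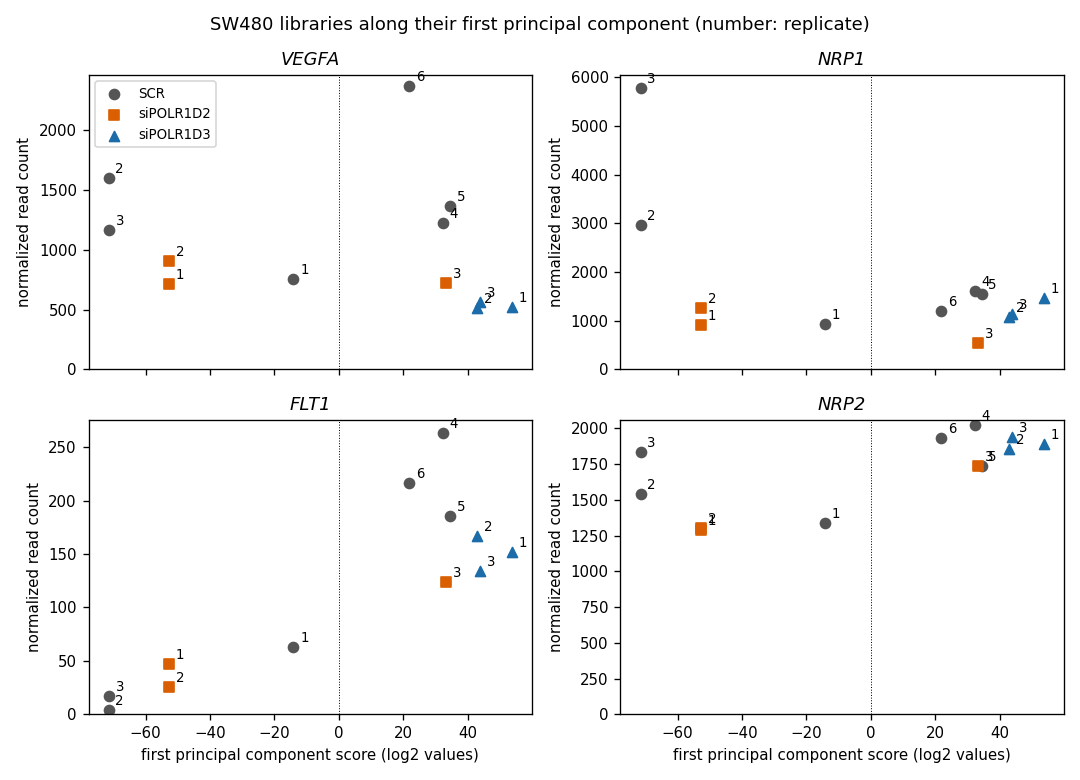
Normalized read count of VEGFA, NRP1, FLT1 and NRP2 in each of the 12 SW480 libraries against its score on the first principal component of the log2 values; the symbol gives the siRNA, the number the replicate, and the dotted line a score of 0. FLT1 lies at or under 63.0 left of the line and at or above 123 right of it, and VEGFA of the silenced libraries lies below the 3 SCR libraries on the right and overlaps with them on the left.

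VEGFA kept a negative sign on both sides. Its values on the second side were 1223 to 2366 in SCR and 515 to 718 in silenced libraries (log2 fold change -1.46, limma adjusted p = 0.0027), and on the first side 751 to 1595 and 711 to 905 (-0.48, limma adjusted p = 0.644). With the side as a covariate the difference over all 12 libraries was -1.06 (limma adjusted p = 0.0104). By siRNA, VEGFA was at -0.53 with siPOLR1D2 against SCR replicates 1 to 3 alone (limma adjusted p = 0.424). It was at -1.57 with siPOLR1D3 against SCR replicates 4 to 6 alone (limma adjusted p = 0.00051). Every siPOLR1D3 library lay on the second side, so siRNAs and sides were not fully separate. With the side as a covariate siPOLR1D3 minus siPOLR1D2 was -0.73 (limma adjusted p = 0.285). The share of all genes called in these subset and covariate fits is not given here, so these VEGFA values are descriptions too.

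FLT4, the receptor of VEGFC and VEGFD, was low in both lines. In SW480 SCR libraries it was 9.07, 4.01, 8.61, 22.3, 6.47 and 8.27. With siPOLR1D2 it was 11.7, 7.76 and 28.1, and with siPOLR1D3 18.3, 15.5 and 17.5. It entered the SW480 fit through 5 of 6 silenced and 1 of 6 SCR libraries at or above 10, so the filter itself favoured a higher silenced value. The log2 fold change was 0.77 (SE 0.41, limma adjusted p = 0.279). In HT29 FLT4 was between 3.48 and 15.3 in SCR and between 7.82 and 11.8 in silenced libraries.

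NRP1, the co-receptor that presents VEGFA to KDR, was steady in HT29 and variable in SW480. In HT29 it was 446, 369, 422 and 471 in SCR libraries and 499, 393, 470 and 326 in silenced ones, listed siPOLR1D2 first. The log2 fold change was -0.03 (SE 0.16, 95% interval -0.39 to 0.33, limma adjusted p = 0.953). In SW480 SCR libraries NRP1 was 929, 2967, 5792, 1608, 1558 and 1196. It was 907, 1262 and 546 with siPOLR1D2 and 1475, 1077 and 1145 with siPOLR1D3. SCR replicates 2 and 3 stood above all others, and 2 of 6 silenced libraries lay below every SCR library. The pooled log2 fold change of -0.90 (SE 0.38, limma adjusted p = 0.178) was near that of VEGFA in size and was not called, and without SCR replicates 2 and 3 it was -0.34 (limma adjusted p = 0.499). With siPOLR1D2 alone it was -1.15 (limma adjusted p = 0.148). It passed the test with the side of the first component as a covariate (-1.30, limma adjusted p = 0.0471). The share of all genes called in that covariate fit is not given here. It was not called against SCR replicates 1 to 3 alone (-1.56, limma adjusted p = 0.330) or without SCR replicates 2 and 3 (-0.59, limma adjusted p = 0.163).

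NRP2, which binds VEGFC and class 3 semaphorins, varied little in SW480. SCR libraries ran from 1338 to 2024 with a median of 1787, siPOLR1D2 libraries were 1290, 1305 and 1736, and siPOLR1D3 libraries 1891, 1855 and 1938. The groups overlapped, and the log2 fold change was -0.06 (SE 0.14, 95% interval -0.36 to 0.24, limma adjusted p = 0.826). The difference siPOLR1D3 minus siPOLR1D2 was 0.41 on the log2 scale (limma, unadjusted p = 0.0279, adjusted p = 0.175) and was not called. In that contrast 3272 of 15019 genes had an unadjusted p under 0.05. With the side of the first component as a covariate the difference was 0.19 (limma adjusted p = 0.55). In HT29 NRP2 was low, at 5.56, 2.42, 9.97 and 6.60 in SCR libraries against 21.2, 12.8, 6.76 and 18.2 in silenced ones. Here 3 of 4 silenced libraries were above every SCR library (exact permutation test, 2-sided, unadjusted p = 0.0571).

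**Figure D3:**
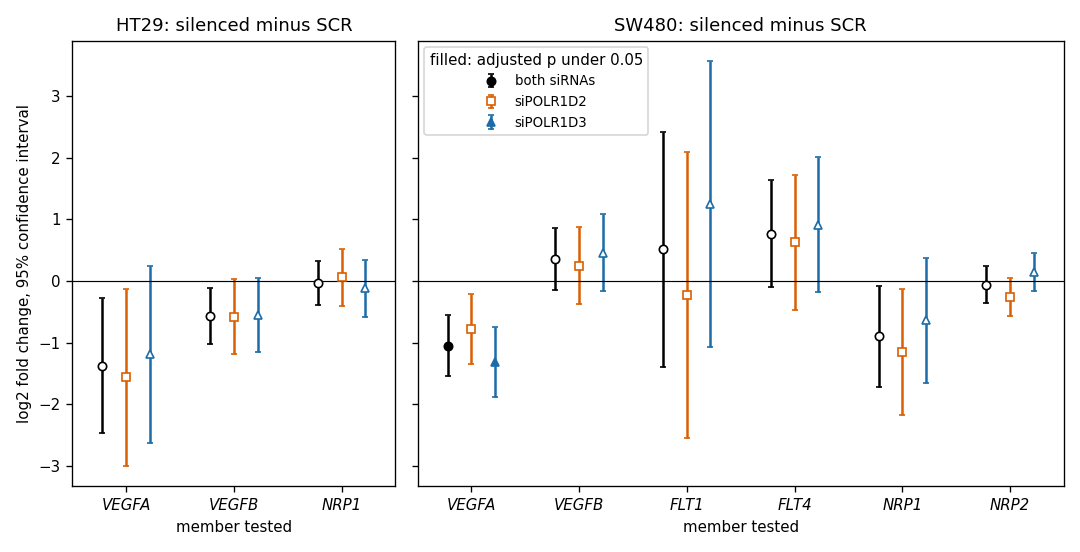
Log2 fold change against SCR (silenced minus SCR, log2 of value plus 1) with its 95% confidence interval for the members that entered the fit in HT29 (left) and SW480 (right); black circles pool both siRNAs, orange squares are siPOLR1D2, blue triangles siPOLR1D3, and filled symbols have an adjusted p under 0.05. The 2 filled symbols are VEGFA in SW480, pooled at -1.05 and with siPOLR1D3 at -1.32.

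Whether VEGFA responded differently from another member was tested on the log2 ratio of both genes within each library. In SW480 the response of VEGFA was lower than those of VEGFB and NRP2 on the log2 scale. The difference was -1.40 for VEGFB (SE 0.43, limma adjusted p = 0.0179) and -0.99 for NRP2 (SE 0.30, limma adjusted p = 0.0166). Without SCR replicates 2 and 3 these differences were -1.265 (limma adjusted p = 0.0692) and -0.95 (limma adjusted p = 0.0534), neither of them called. For FLT4 the difference was -1.82 (SE 0.53), a description only, since FLT4 entered the fit mainly through silenced libraries. It was not told apart from that of NRP1 (difference -0.15, 95% interval -1.30 to 1.00, limma adjusted p = 0.788) or FLT1 (difference -1.56, 95% interval -3.99 to 0.87, limma adjusted p = 0.205). Against all genes tested in SW480 the response of VEGFA was lower than that of 70.8% of them by the same test, so the 2 of 4 members passing it, FLT4 left aside, are no larger a share than the background. For VEGFB the read count of VEGFA was 2.53 to 14.4 times as high in SCR and 1.49 to 5.50 times as high in silenced SW480 libraries, and the exact permutation test of this ratio gave p = 0.0108. For NRP2 the ratio was 0.56 to 1.22 in SCR and 0.27 to 0.69 in silenced libraries (exact permutation test, p = 0.0130).

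In HT29 neither ratio passed. The response of VEGFA minus that of VEGFB was -0.81 (95% interval -2.06 to 0.43, limma adjusted p = 0.184), and minus that of NRP1 it was -1.35 (95% interval -2.95 to 0.26, limma adjusted p = 0.145). The test called 0% of genes in HT29, against 3026 at an unadjusted p under 0.05. Without SCR replicate 3 both ratios passed (-1.24, limma adjusted p = 0.0233 for VEGFB and -1.84, limma adjusted p = 0.0249 for NRP1). All ratios share the VEGFA values, and the share of all genes called in that fit is not given here, so both are descriptions. Without SCR replicates 1 and 2, left out together after the data were seen, neither passed. The differences were then -0.056 for VEGFB (limma adjusted p = 0.93) and -0.31 for NRP1 (limma adjusted p = 0.727).

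**Figure D4:**
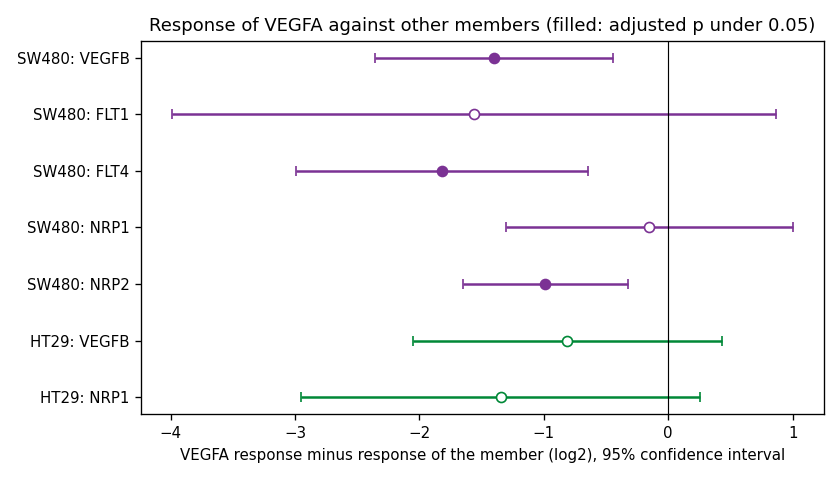
Response of VEGFA minus the response of another member (horizontal axis, log2, with 95% confidence interval) for each member in the fit of SW480 (purple) and HT29 (green); filled points have an adjusted p under 0.05. The filled points of VEGFB and NRP2 in SW480 lie left of 0, as does that of FLT4, which entered the fit mainly through silenced libraries, and the interval of NRP1 in SW480, -1.30 to 1.00, spans it.

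Among the ligands, VEGFA made up 49.3% to 84.4% (median 70.1%) of the summed level per kilobase in SW480 SCR libraries and 36.1% to 65.4% (median 44.8%) in silenced ones, with the longest coding transcripts as lengths. In HT29 it was 62.8% to 89.1% (median 81.5%) in SCR and 67.1% to 73.7% (median 69.99%) in silenced libraries. The ranges overlapped in both lines.

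The genes with levels most like those of VEGFA over the 20 libraries, once the mean of each line was removed, were CTH (r = 0.961), CEBPG (0.958), HERPUD1 (0.958), GDF15 (0.955), DDIT3 (0.941), TRIB3 (0.937), HSPA13 (0.937) and XBP1 (0.934). CTH makes cysteine from cystathionine, CEBPG, DDIT3 and XBP1 are transcription factors known from amino acid and endoplasmic reticulum stress, HERPUD1 acts in protein degradation at the endoplasmic reticulum, and GDF15 is a secreted stress cytokine. In HT29 alone r was between 0.955 and 0.988 for these 8 genes, and in SW480 alone between 0.865 and 0.953. The libraries share treatment, line and depth, so these are descriptions. Of the other members tested in both lines, VEGFB and NRP1, neither came near: r with VEGFA was 0.0878 for VEGFB (0.802 in HT29 and -0.563 in SW480) and 0.246 for NRP1. For VEGFB the most alike were IDH3G (0.891), CETN2 (0.888) and PCYT2 (0.888), and for NRP1 EOGT (0.917), GTF2A1 (0.906) and MACF1 (0.865). The likeness to NRP1 was mostly that of SW480, where r was 0.969, 0.924 and 0.917. In HT29 alone it was 0.193, 0.624 and 0.353.

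Lists around the pathway were counted beside the family. They were chosen with earlier results of these data known, so their counts are descriptions. Beside the 4.29% of all genes called lower and 2.44% called higher in SW480, 3 of 12 other transcriptional and mRNA-binding regulators of VEGFA were lower and none higher by limma: ERN1, the endoplasmic reticulum stress sensor (log2 fold change -1.71, adjusted p = 0.0033), ATF4, the main factor of the integrated stress response (-0.81, adjusted p = 0.0065), and XBP1 (-0.88, adjusted p = 0.0111). The authors had already listed ATF4 and XBP1 as lower after silencing in both lines, so these are no independent hits. The median of that list was -0.07, against 0.01 over all genes. In HT29 ATF4 had a log2 fold change of -0.71 (limma adjusted p = 0.355) and XBP1 -0.89 (limma adjusted p = 0.355), neither called.
Of 12 tested genes of the hypoxia-inducible factor system in SW480, which control VEGFA under low oxygen, none was lower and 2 were higher, the coactivator CREBBP (0.40, limma adjusted p = 0.0375) and the prolyl hydroxylase EGLN2 (0.48, limma adjusted p = 0.0442). HIF1A itself was at 0.03 (limma adjusted p = 0.933). The list median was 0.13.
Among 40 tested mediators of receptor signalling in SW480, 4 were lower and 1 higher, with a median of 0.004. PXN, a focal adhesion adaptor, was at -0.64 (limma adjusted p = 0.0118), the kinase FYN at -0.58 (0.0264), the catalytic subunit PIK3CA at -0.45 (0.0410), the adaptor NCK1 at -0.45 (0.0475) and the kinase MAPK3 at 0.82 (0.0061).
Of 14 other secreted angiogenic factors, 1 was lower, HBEGF, a ligand of the EGF receptor (-1.94, limma adjusted p = 0.0117), and the median was -0.37. None was called among 12 class 3 semaphorins, plexins and partners (smallest p for SEMA3C, 1.74, limma adjusted p = 0.0538, median 0.26), 4 genes of the PDGF family (PDGFB, -1.22, limma adjusted p = 0.0595, median -0.45) or 17 inhibitors and processing enzymes (FURIN, -0.47, limma adjusted p = 0.123, median 0.03). At an unadjusted p under 0.05 these 3 lists held 3, 1 and 3 genes, where 23.2% of all genes tested in SW480 were under it. No gene of the 7 lists was called in HT29 by limma, and 14 of 98 (14.3%) were at an unadjusted p under 0.05, against 10.7% of all genes.

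Endothelial markers, with which the kinase receptors are usually found, did not separate the arms. Of 12 vascular markers, 4 were tested in SW480 and none was called, and their summed level was 216 to 853 in SCR and 173 to 658 in silenced libraries. In HT29 it was 679 to 952 and 580 to 789. PROX1, the one lymphatic marker tested and also a gene of colorectal cancer cells, was higher in silenced SW480 libraries (log2 fold change 0.92, limma adjusted p = 0.0184). Of 9 tested epithelial markers, the keratins KRT19 (0.70, limma adjusted p = 0.0226) and KRT20 (2.74) were higher too. KRT20 had a median of 4.27 and a highest value of 11.2 in SCR libraries. It entered the fit mainly through silenced libraries, so its value is a description only. Antisense genes are annotated over the spans of VEGFA, NRP1, NRP2, KDR and VEGFC. Overlap of their exons was not examined, and the strand setting of the counting is not given in the sources used here. Whether any reads counted for these members came from antisense transcripts was not tested.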

How the data were processed

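The authors captured the coding transcriptome of total RNA, sequenced it as paired-end reads and quantified it, per the labels, with FastQC 0.11.5, kallisto 0.44.0 and DESeq2 1.24.0 on hg38. The deposited signal values are counts scaled by the authors' DESeq2 size factors within each line. They are not whole numbers, so no count test was used. The index and annotation are not given in the sources used here. Of 40117 rows per library, those sharing a name were summed. log2(value + 1) was fitted with limma 3.58.1 (R 4.3.3, with trend) per line over genes at or above 10 in at least 4 (HT29) or 6 (SW480) libraries, with Benjamini-Hochberg adjustment over all of them and a threshold of 0.05. Log ratios of VEGFA to each gene were fitted without moderation, since they share the noise of VEGFA. Exact permutation tests (2-sided, scipy 1.17.1) covered single members. The fits were also run on simulated data, whose outcome is not given here and is not used as support. Members and lists were chosen with earlier results of these data known. Genes named were the members, POLR1D, up to 6 called genes per list or else the one with the smallest p, and the genes most correlated with VEGFA (8) or with VEGFB and NRP1 (3 each). Lengths are from GENCODE on GRCh38 and promoters from RefSeq. Alternatives covered scaling, filters, pseudocounts, replicate blocks, single fits, sides of the first component and each library left out.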

Additional observations from a re-analysis of the deposited data

Results flagged for a closer look

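Among 30 groups of member values, 2 had a library far from the others of its group, where chance gives about 1 in 20. VEGFB was 562.1 in HT29 SCR replicate 1, and the gap to the next library took 0.993 of the whole range of the 4 SCR libraries. FLT4 was 22.27 in SW480 SCR replicate 4, where the distance to the next library was 0.723 of the spread of the 6 SCR libraries.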

How the results depend on the processing

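With other pseudocounts, filters, quantile normalization, no trend, robust moderation or 1 row per name, VEGFA in SW480 stayed called and negative. With each library left out in turn its log2 fold change ran from -1.21 to -0.88 and was called in 12 of 12 fits; in HT29 it ran from -1.87 to -1.003, called in 0 of 8. The same fits gave -1.48 to -1.15 for siPOLR1D3 and -0.95 to -0.62 for siPOLR1D2 in SW480. VEGFA minus NRP1 ran from -0.51 to 0.15 in SW480 and from -1.84 to -0.995 in HT29, and VEGFA minus VEGFB from -1.24 to -0.47 in HT29. VEGFA minus VEGFB and VEGFA minus NRP2 in SW480 were called in 12 of 12. VEGFA minus FLT4 was too, a description only, since FLT4 entered the fit mainly through silenced libraries. The SW480 minus HT29 response of VEGFA ran from -0.047 to 0.82, NRP1 in HT29 from -0.12 to 0.088, NRP2 in SW480 from -0.13 to 0.0079, FLT1 in SW480 from -0.21 to 0.92 (siPOLR1D2 from -0.95 to 0.28) and VEGFB with siPOLR1D2 in SW480 from -0.037 to 0.50. In one fit of all 20 libraries VEGFA in SW480 was -1.05 (adjusted p = 0.0554, limma), and 0 members were called. At an adjusted p under 0.1 it was called with siPOLR1D2 (-0.78). Without SW480 SCR replicates 2 and 3, chosen after seeing the data, VEGFA was -1.03 (limma adjusted p = 0.0586), VEGFA minus FLT4 -1.57, minus NRP2 -0.95 and minus VEGFB -1.265 were not called, 0 members were called, and FLT1 turned to -0.84 (siPOLR1D3 -0.096). Fewer libraries enter that fit. On the first side of the first component VEGFA was -0.48, VEGFA minus NRP1 0.76, minus NRP2 -0.21 and minus VEGFB -0.41, VEGFB turned to -0.071, and 0 members were called; on the second side FLT1 was -0.61. With the side as covariate FLT1 was 0.27 with siPOLR1D2 and -0.27 with siPOLR1D3, NRP2 with siPOLR1D3 was -0.022, and NRP1 with siPOLR1D2 was called (-1.30, limma adjusted p = 0.0471). Against SCR replicates 1 to 3 alone FLT1 with siPOLR1D2 was 1.56, and against replicates 4 to 6 alone FLT1 and NRP2 with siPOLR1D3 were -0.54 and -0.00083. Upper quartile rescaling turned NRP1 in HT29 to 0.063 and NRP2 in SW480 to 0.036. The cause of these changes was not tested.

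Replicate numbers are shared between groups, but same-numbered libraries did not deviate together (mean residual correlation -0.03 over 4 pairs in HT29, 0.01 over 6 in SW480), so the numbers were not taken as pairs. No silenced library carried the numbers 3 and 4 in HT29 or 4 to 6 in SW480. The block therefore set only SCR replicates 1 and 2 (HT29) or 1 to 3 (SW480) against the silenced libraries. With it, VEGFA in HT29 by limma was -2.35 (adjusted p = 0.0025), at -2.53 with siPOLR1D2 and -2.16 with siPOLR1D3. The differences minus NRP1 and minus VEGFB were -2.38 and -1.57. All of these were called, with 1 member called. Without SCR replicates 1 and 2 the HT29 difference of VEGFA was -0.41 (limma adjusted p = 0.559). The share of all genes called in the block fits is not given here. In SW480 VEGFA was -0.80 (adjusted p = 0.157), minus FLT4 -1.86, minus NRP2 -0.88, minus VEGFB -1.115 and minus NRP1 0.50, none of these called (limma adjusted p for the first 3 differences 0.0989, 0.158 and 0.156), with 0 members called. The block turned FLT1 with siPOLR1D2 to 1.56, NRP1 in HT29 to 0.038 and NRP2 in SW480 to 0.079.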
